A study of Mus musculus with 12 samples.

Results

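Gene expression was compared between 2 groups of 4 RNA-seq libraries from leukaemic mouse spleen, 8 of the 12 libraries in the series. One group carries the treatment label PBS but the column header DEC, and is written PBS/DEC below. The other carries the treatment label CpG-scrODN but the column header PBS, and is written CpG-scrODN/PBS. By the labels the comparison asks what the control oligonucleotide, a TLR9-stimulating CpG strand joined to a scrambled sequence, changes against buffer. By the headers it sets DEC, a word the labels do not define, against PBS. Differences are therefore given by group, and none is credited to a treatment.

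All 8 libraries came from C57BL/6 mice engrafted by vein with CMM cells, a GFP-marked transplantable acute myeloid leukaemia of the inv(16) type. CMM cells are known to carry the Cbfb-MYH11 fusion gene that inv(16) creates, so both groups share this allele. Once about 1% of blood cells carried GFP, mice received 3 intravenous injections on alternate days, and spleens were taken 1 day after the last. Cells bearing c-Kit were enriched by positive selection from the spleen suspension, and the series design text, but not the extraction protocol, adds sorting for GFP. Enrichment by a surface protein leaves other spleen cells of the host in the sample. Ages and sexes are not given in the labels used here, nor is it stated that 1 library stands for 1 mouse, so the p-values measure only how these samples spread, and that spread may be technical.

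Values are RPKM, reads scaled to transcript length and to the mapped reads of the library, as the authors deposited them. Of 24310 features, 10726 had an RPKM of 1 or more in at least 4 of the 8 libraries and were compared. A gene expressed in only 1 of the groups can pass that filter through that group alone. Where every library of the other group was under 1 RPKM, the filter fixes that the groups do not overlap. Non-overlap of such a gene is no support for its difference. Differences and their standard errors (SE) are on the log2(RPKM + 1) scale, which understates the change of low genes, with 4 libraries in each group. Levels joined by "against" are those of PBS/DEC replicates 1 to 4 and then of CpG-scrODN/PBS replicates 1 to 4. Differences are PBS/DEC minus CpG-scrODN/PBS unless stated. A gene was called at a limma adjusted p under 0.05 (Benjamini-Hochberg over all 10726 genes, two-sided).

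TLR9 is an endosomal receptor for CpG-rich DNA that reaches its compartment with the chaperone UNC93B1 and signals through MYD88 to NF-kB and interferon regulatory factors. STAT3 is a transcription factor activated by JAK kinases downstream of cytokine receptors. In myeloid cells PU.1, encoded by Spi1, and IRF8 are known to bind adjacent DNA motifs and to drive monocyte and dendritic cell genes, while primary granule proteases are made by promyelocytes and their leukaemic counterparts.

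The libraries held an estimated 31510000 to 35930000 mapped reads each. Within a group, log2 values correlated at 0.9291 to 0.9883 for PBS/DEC and 0.9839 to 0.9968 for CpG-scrODN/PBS. Replicate 4 of PBS/DEC stood apart: Fos, an immediate-early gene, was at 843, 1156, 669 and 12.9 RPKM in PBS/DEC replicates 1 to 4 and at 966, 731, 890.2 and 1038 in CpG-scrODN/PBS. Markers of other spleen cells also differed between groups. The summed RPKM of 22 B-cell markers was 315 to 1031 in PBS/DEC and 26.9 to 50.6 in CpG-scrODN/PBS, with no marker absent from every library of a group. Of these, 21 passed the filter, and 20 of the 21 were called. Of 4 T-cell markers kept, Cd3g, Lck and Cd2 were called higher in PBS/DEC, and the mean log2 level of the 4 was 3.40 to 4.23 against 2.22 to 2.53. The summed RPKM of all 15 T-cell markers listed, kept or not, overlapped, at 159 to 179 and 163 to 173. Summed levels overlapped also for mature neutrophil markers, at 1949 to 6174 and 814 to 2763, and for erythroid markers, at 746 to 12338 and 1164 to 2301. Xist, expressed from the inactive X chromosome, was at 42.6, 43.1, 65.3 and 19.1 against 66.6, 61, 59.8 and 76.5, and the Y-linked Eif2s3y was at 3.58, 5.34, 0 and 11.3 against 1.84, 0.683, 1.0 and 0. In these bulk samples, fewer cells of a type and less RNA per cell cannot be told apart. The part that B cells, T cells, neutrophils, red cells or the sex of the donor or host had in the differences below was not tested.

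Called genes were mostly higher in PBS/DEC. Of 10726 genes, 383 were called higher in PBS/DEC (3.57%) and 16 higher in CpG-scrODN/PBS (0.149%). After quantile normalization of the same libraries the split was 272 and 62. The difference reached 1 on the log2 scale for 248 of the former and for 3 of the latter, and the median difference of all 10726 genes, CpG-scrODN/PBS minus PBS/DEC, was -0.046. Groups did not overlap in RPKM for 1482 genes (13.8%), 9.97% higher in PBS/DEC and 3.85% higher in CpG-scrODN/PBS, among them 398 of the 399 called. For how many of the 1482 the filter fixed this was not counted. Of the 399 called genes 39 belong to lists of B-cell, plasma cell, T-cell or MHC genes, and 344 genes higher in PBS/DEC lie outside those lists. The share of all genes called in either direction, 3.72%, is the background for each count of called list members below. Those counts are out of the list members that passed the filter.

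The number of calls moved with single libraries. With all 8 libraries 399 genes were called, against 817 without PBS/DEC replicate 3 and 587 without PBS/DEC replicate 4. Leaving out CpG-scrODN/PBS replicate 1, 2, 3 or 4 gave 250, 224, 204 and 249 calls. In each of these 8 fits 195 of the 399 genes stayed called, 193 of them higher in PBS/DEC. Without both libraries numbered 4, a setting chosen after the data were seen, 347 of the 383 and 12 of the 16 were called again.

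**Figure D1:**
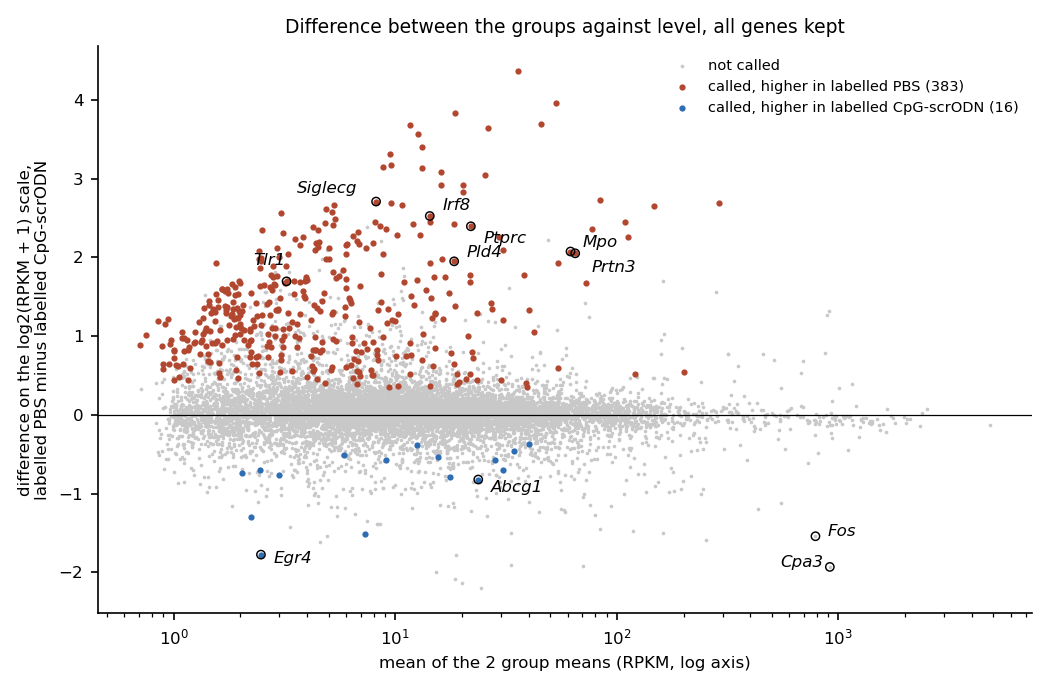
Difference between group means on the log2(RPKM + 1) scale (y axis, labelled PBS minus labelled CpG-scrODN) against the mean of the group means in RPKM (x axis, log scale), 1 point for each of 10726 genes. The 383 red points lie above zero and the 16 blue points, among them Abcg1 and Egr4, below it.

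**Figure D2:**
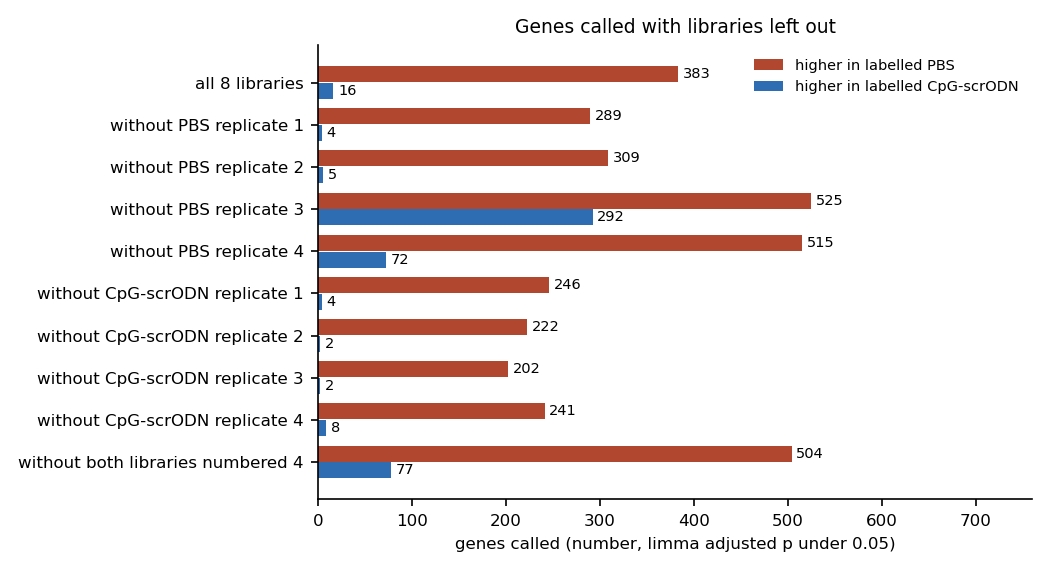
Number of genes called (x axis) with all 8 libraries, with each library left out, and without both libraries numbered 4, split by direction. Calls higher in labelled PBS run from 202 to 525 and those higher in labelled CpG-scrODN from 2 to 292.

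Promoter windows of 300 bases, from 250 before to 50 after the RefSeq transcription start (GRCm38.p6), were searched on both strands for 4 motifs. The windows covered 8206 of the 10726 genes (10429 windows) and 286 of the 383 genes higher in PBS/DEC (364 windows). The PU.1 motif GAGGAAGT was in 3.39% of all windows and in 35 windows, or 9.62%, of those genes. Among genes outside the B-cell, plasma cell, T-cell and MHC lists its share was 9.94%. The ETS-IRF composite GGAANNGAA was in 7.53% of all windows and 9.89% of theirs, and the interferon response core GAAANNGAA in 7.26% and 10.7%. The STAT palindrome TTCCNGGAA was in 1.26% and 0.824%. The ETS-IRF motif can overlap a PU.1 motif, since both hold GGAA. These shares are descriptions without a test, and a match says only that the letters are present.

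The matching promoters of 5 genes are shown because these genes recur in the results: granule proteins (Mpo, Prtn3), a Toll-like receptor (Tlr1), a lysosomal nuclease (Pld4) and the catalytic subunit of the phagocyte oxidase (Cybb). Capitals mark the matches, which are PU.1 motifs in Mpo, Prtn3 and Tlr1, a PU.1 motif overlapping an ETS-IRF composite in Pld4, and an ETS-IRF composite with 3 interferon response cores in Cybb. Each reads 5′ to 3′ on the gene's own strand: Mpo at chr11:87793534-87793833 on the plus strand, Prtn3 at chr10:79879417-79879716 (plus), Tlr1 at chr5:64933509-64933808 (minus), Pld4 at chr12:112760405-112760704 (plus) and Cybb at chrX:9469275-9469574 (minus).
Mpo: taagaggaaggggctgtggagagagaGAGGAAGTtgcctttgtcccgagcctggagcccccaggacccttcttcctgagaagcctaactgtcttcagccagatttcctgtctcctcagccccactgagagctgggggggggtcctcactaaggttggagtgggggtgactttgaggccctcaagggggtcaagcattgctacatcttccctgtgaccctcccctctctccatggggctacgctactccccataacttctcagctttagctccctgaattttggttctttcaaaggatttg
Prtn3: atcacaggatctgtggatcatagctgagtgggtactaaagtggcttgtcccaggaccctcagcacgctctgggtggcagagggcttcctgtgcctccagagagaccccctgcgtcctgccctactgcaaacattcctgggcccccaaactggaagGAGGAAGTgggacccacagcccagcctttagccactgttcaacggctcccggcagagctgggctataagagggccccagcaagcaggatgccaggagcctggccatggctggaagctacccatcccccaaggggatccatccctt
Tlr1: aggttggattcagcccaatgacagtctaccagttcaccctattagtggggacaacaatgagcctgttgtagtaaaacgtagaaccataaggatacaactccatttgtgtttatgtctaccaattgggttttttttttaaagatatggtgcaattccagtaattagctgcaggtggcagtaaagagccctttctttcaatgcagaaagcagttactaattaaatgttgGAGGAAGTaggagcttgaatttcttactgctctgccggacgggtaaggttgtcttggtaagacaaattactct
Pld4: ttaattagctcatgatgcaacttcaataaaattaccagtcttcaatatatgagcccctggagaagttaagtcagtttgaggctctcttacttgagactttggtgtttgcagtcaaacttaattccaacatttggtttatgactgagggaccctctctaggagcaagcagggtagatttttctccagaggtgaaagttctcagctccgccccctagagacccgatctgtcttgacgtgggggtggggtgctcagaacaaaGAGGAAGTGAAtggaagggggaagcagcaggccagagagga
Cybb: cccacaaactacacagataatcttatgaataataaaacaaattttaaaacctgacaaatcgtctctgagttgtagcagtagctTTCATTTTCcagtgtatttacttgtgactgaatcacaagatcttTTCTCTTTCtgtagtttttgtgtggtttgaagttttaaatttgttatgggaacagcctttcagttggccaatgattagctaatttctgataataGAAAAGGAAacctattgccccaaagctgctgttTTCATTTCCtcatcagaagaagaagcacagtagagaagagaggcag

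Among transcription factors of blood cells, 8 of 52 kept were called, all higher in PBS/DEC (Irf8, Cebpd, Cebpe, Gfi1, Ikzf3, Bcl6, Mef2c and Pou2f2), against 3.72% of all genes in either direction. The list's median difference was 0.36, against 0.046 over all genes. The count of calls became 3 without CpG-scrODN/PBS replicate 3 or 4, 4 without CpG-scrODN/PBS replicate 2, 5 without PBS/DEC replicate 2 and 13 without PBS/DEC replicate 4. Irf8 (chromosome 8, 120736358 to 120756694), which directs progenitors towards monocytes and dendritic cells, was at 22.8, 17.2, 18.5 and 42.4 RPKM in PBS/DEC replicates 1 to 4 and at 3.47, 4.41, 3.15 and 2.33 in CpG-scrODN/PBS. All 4 PBS/DEC libraries lay above all 4 others, replicate 4 highest, and the difference was 2.53 ± 0.27 (SE, adjusted p = 0.0019). Ikzf3, the lymphoid factor Aiolos, was at 7.0, 4.5, 5.62 and 14.6 against 1.01, 0.989, 0.678 and 0.563, a difference of 2.19 ± 0.29 (adjusted p = 0.00444). Cebpd, a myeloid C/EBP factor, was at 2.87, 3.81, 2.64 and 4.04 against 1.31, 1.28, 0.914 and 0.767, a difference of 1.07 ± 0.15 (adjusted p = 0.00528) in which replicate 4 did not stand far above the rest. Spi1, which was singled out from its values, was at 51, 70.1, 59.9 and 87.4 against 59.7, 59.1, 53.7 and 57.1. Its groups overlapped, and the difference of 0.20 ± 0.15 did not pass the test (adjusted p = 0.528).

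Genes of primary granules, the azurophilic granules that promyelocytes fill with proteases and peroxidase, were called in 9 of 19 kept. All 9 were higher in PBS/DEC (Mpo, Elane, Prtn3, Ctsg, Ms4a3, Plac8, Clec5a, Rab32 and Prss57). Called or not, 16 of the 19 were higher in PBS/DEC and 3 higher in CpG-scrODN/PBS. The median difference over the 19 was 0.95 and the count became 5 without CpG-scrODN/PBS replicate 2 or 3. Mpo (chromosome 11, 87793784 to 87804412), the peroxidase that makes hypochlorous acid, was at 93.8, 119, 95.8 and 91.6 RPKM in PBS/DEC and at 30.0, 17.2, 17.4 and 30.0 in CpG-scrODN/PBS, a difference of 2.08 ± 0.20 (adjusted p = 0.00129). Prtn3 (chromosome 10, 79879667 to 79883174), proteinase 3, was at 96.7, 122, 93.8 and 108 against 29.9, 21, 20.9 and 27.2, a difference of 2.05 ± 0.14 (adjusted p = 0.000234). In both genes every PBS/DEC library held at least 91.6 RPKM and no CpG-scrODN/PBS library more than 30.0, and replicate 4 was the highest PBS/DEC library in neither. Ctsg (chromosome 14, 56099885 to 56102574), cathepsin G, was at 38, 51.4, 46.9 and 63.5 against 13.8, 8.35, 6.99 and 16.3, a difference of 2.09 ± 0.26 (adjusted p = 0.00335). The calprotectin genes of later neutrophils varied widely within groups. S100a8 was at 777, 1932, 1689 and 589 against 807, 695, 359 and 219, and S100a9 at 856, 1929, 1671 and 682 against 866, 737, 348 and 213. Their groups overlapped and neither difference passed the test (adjusted p = 0.245 and 0.22). Of 14 mature neutrophil markers 0 were called by limma, where 3.72% of all genes were called. Their median difference was 0.89, with 13 of the 14 higher in PBS/DEC and 1 higher in CpG-scrODN/PBS. An unadjusted p under 0.05 was reached by 6 of them and by 1836 of all 10726 genes.

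Monocyte and macrophage differentiation genes were called in 14 of 37, all higher in PBS/DEC, with a median difference of 0.74. The count became 6 without CpG-scrODN/PBS replicate 3, 7 without CpG-scrODN/PBS replicate 2, 8 without CpG-scrODN/PBS replicate 1 and 9 without PBS/DEC replicate 1. Ly6c2, a surface marker of inflammatory monocytes, was at 77.2, 124, 96.2 and 146 RPKM in PBS/DEC and 43.3, 38.2, 23.7 and 30.5 in CpG-scrODN/PBS, a difference of 1.67 ± 0.23 (adjusted p = 0.00538). Ms4a6b and Ms4a4c belong to a family of 4-span membrane proteins whose close copies may share reads. Ms4a6b was at 9.02, 7.03, 6.89 and 16.7 against 1.71, 3.07, 1.89 and 1.9 (adjusted p = 0.00737). Ms4a4c was at 12.7, 6.19, 7.43 and 35.7 against 1.49, 2.23, 1.47 and 0.985, with replicate 4 far above the others, and its call (adjusted p = 0.0241) was lost without PBS/DEC replicate 1 or any 1 of the CpG-scrODN/PBS libraries (differences 2.29 to 2.52, adjusted p 0.0581 to 0.0833).

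Subunits of the phagocyte NADPH oxidase, which makes superoxide, were called together. Cybb (chromosome X, 9435252 to 9487766), its catalytic subunit gp91phox, was at 20.8, 24.2, 27.9 and 33.6 RPKM in PBS/DEC and 11.2, 9.15, 5.76 and 7.9 in CpG-scrODN/PBS, a difference of 1.55 ± 0.20 (adjusted p = 0.00359). Ncf1, the cytosolic organiser p47phox, was at 23.2, 32, 33.1 and 46.6 against 14.2, 11.7, 7.11 and 6.62, a difference of 1.69 ± 0.27 (adjusted p = 0.00964). Ncf4, the p40phox subunit, was at 16.3, 21.7, 23.2 and 25.9 against 11.5, 9.6, 6.23 and 6.27, a difference of 1.3 ± 0.21 (adjusted p = 0.0104). In all 3 genes the lowest PBS/DEC library was replicate 1 and the highest CpG-scrODN/PBS library was replicate 1, and the groups did not overlap. With Gsr and Mgst2 they made 5 called of 28 oxidase, antioxidant and NRF2 genes (8 without PBS/DEC replicate 3), with a list median of 0.21.

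Of 27 genes of TLR9 trafficking and signalling, Unc93b1 and Tlr9 were called, both higher in PBS/DEC, where 3.72% of all genes were called. The list median was 0.22. The count became 1 without PBS/DEC replicate 1 or CpG-scrODN/PBS replicate 1, 2 or 3. Unc93b1 (chromosome 19, 3935158 to 3949340) was at 48, 37.1, 39.5 and 72.8 RPKM in PBS/DEC and 11.3, 8.95, 7.78 and 9.05 in CpG-scrODN/PBS, a difference of 2.25 ± 0.21 (adjusted p = 0.000879). Tlr9 (chromosome 9, 106222598 to 106226876) was low throughout, at 3.0, 1.74, 1.9 and 8.1 against 0.306, 0.405, 0.312 and 0.166. Every CpG-scrODN/PBS library was under 1 RPKM, so the filter fixed that its groups did not overlap. Replicate 4 of PBS/DEC was far highest (difference 1.67 ± 0.34, adjusted p = 0.0326). The Tlr9 call was lost without PBS/DEC replicate 1 or any 1 of the CpG-scrODN/PBS libraries, with differences of 1.62 to 1.71 and adjusted p of 0.0801 to 0.105.

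Of 20 genes listed for other Toll-like receptors, their partners and cytosolic sensors, 10 passed the filter. Among these 10, 5 were called higher in PBS/DEC (Tlr1, Cd180, Ly86, Nod1 and Tmem173), with 5 called in every fit that left out 1 library and a list median of 0.59. Of these 5 only Tlr1 is a Toll-like receptor, and Nod1 and Tmem173 belong to the cytosolic sensors. Tlr1, the partner of TLR2 for bacterial lipopeptides, was at 6.53, 4.49, 4.99 and 5.93 RPKM in PBS/DEC and 1.05, 1.01, 0.915 and 0.971 in CpG-scrODN/PBS, a difference of 1.70 ± 0.12 (adjusted p = 0.000234). Its replicate 4 lay within the other PBS/DEC libraries. Cd180, a receptor related to TLR4, was at 4.14, 3.95, 4.26 and 6.47 against 1.32, 0.992, 1.14 and 1.4 (1.35 ± 0.15, adjusted p = 0.00191). Ly86, which encodes the MD-1 protein that CD180 needs, was at 19.5, 17.4, 16.6 and 35.6 against 2.98, 3.05, 3.65 and 4.83 (2.28 ± 0.24, adjusted p = 0.00162). In both of these genes replicate 4 was the highest. Tmem173, the cytosolic DNA response adaptor STING, was at 7.13, 6.09, 6.69 and 11.4 against 3.1, 2.6, 2.16 and 2.34, a difference of 1.28 ± 0.18 (adjusted p = 0.00528).

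Interferon-stimulated genes were called in 4 of 28 (Ifi27l2a, Trim30a, Ifi203 and Cmpk2), all higher in PBS/DEC, with a list median of 0.35. This and the other counts of the paragraph stand beside 3.72% of all genes called. The count became 1 without PBS/DEC replicate 1 or CpG-scrODN/PBS replicate 1, 3 or 4 and 2 without CpG-scrODN/PBS replicate 2. Ifi203, a nuclear protein of the interferon-inducible p200 family whose copies may share reads, was at 5.66, 3.91, 4.12 and 5.76 RPKM in PBS/DEC and 0.772, 0.957, 0.816 and 0.813 in CpG-scrODN/PBS (1.66 ± 0.13, adjusted p = 0.000435). Among 12 interferon-inducible GTPases the median was 1.08 but 1 was called (4 without PBS/DEC replicate 4). That gene, Gbp9, was at 2.94, 1.91, 2.78 and 6.05 against 0.474, 0.504, 0.196 and 0.293 (1.62 ± 0.25, adjusted p = 0.00781). Casp1, the inflammasome caspase that cleaves interleukin-1 beta, was at 5.91, 5.49, 4.91 and 10.6 against 1.28, 1.64, 0.992 and 0.991, and it and Casp4 were called of 30 BCL2 family and caspase genes (1.75 ± 0.21, adjusted p = 0.00308 for Casp1). That count of 2 became 1 without PBS/DEC replicate 2 or CpG-scrODN/PBS replicate 1, 2, 3 or 4, 4 without PBS/DEC replicate 3 and 7 without PBS/DEC replicate 4. Cd40, a costimulatory receptor of antigen-presenting cells, was at 2.7, 2.35, 2.13 and 4.89 against 0.245, 0.284, 0.28 and 0.307 (1.6 ± 0.19, adjusted p = 0.00301). It was 1 of 6 called among 27 NF-kB genes, a count that became 2 without CpG-scrODN/PBS replicate 3 and 3 without CpG-scrODN/PBS replicate 2.

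**Figure D3:**
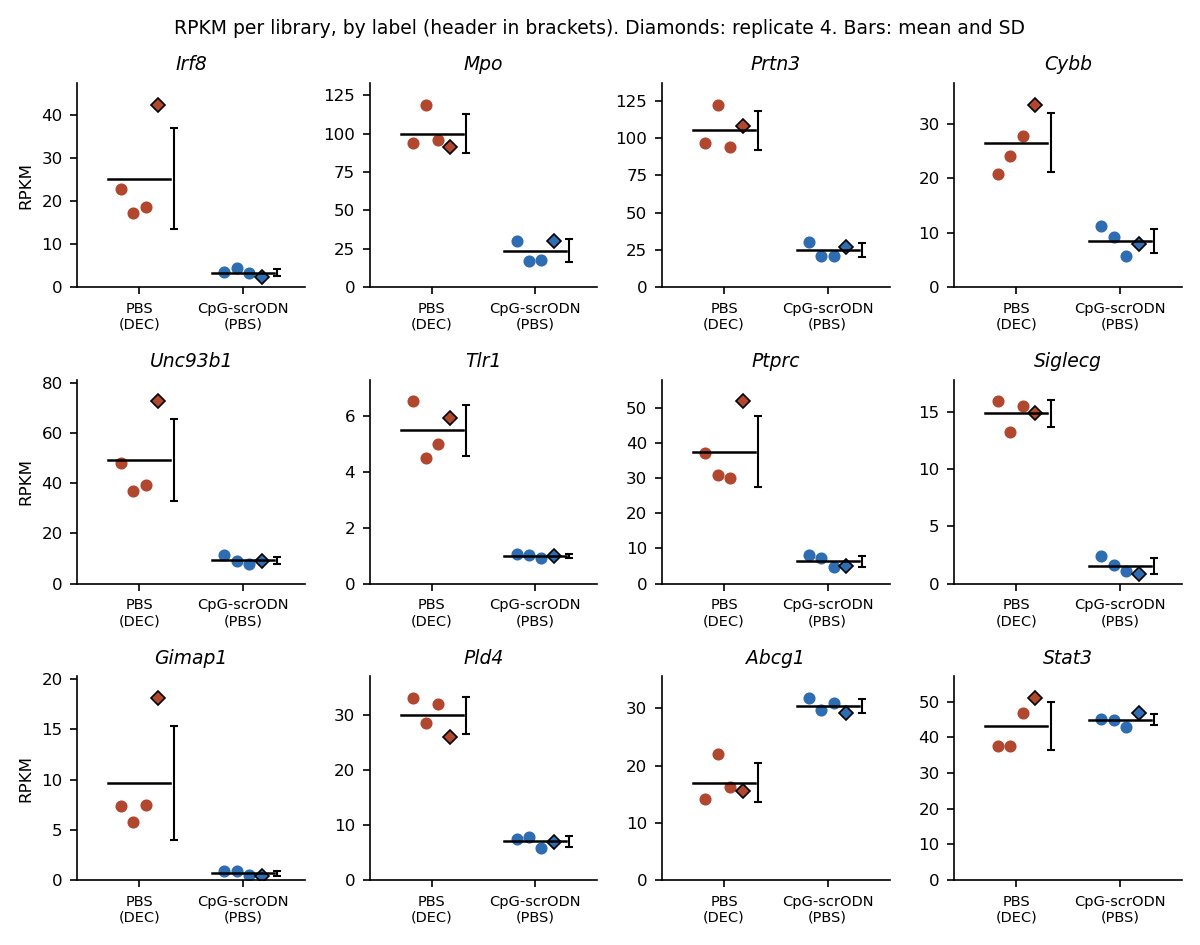
RPKM (y axis, from 0) in each of the 4 libraries of both groups for 12 genes, with a line at the mean and a bar for 1 SD. In 10 genes every red point (labelled PBS, headed DEC) lies above every blue point (labelled CpG-scrODN, headed PBS), Abcg1 shows the opposite order, and Stat3 overlaps. For Gimap1, whose blue points are all under 1 RPKM, the filter fixed this order.

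The largest differences outside the lists of B-cell and MHC genes included surface molecules of mature leukocytes, some of them known mainly from B cells. Ptprc (chromosome 1, 138062859 to 138175756), which encodes the phosphatase CD45 found on nearly all leukocytes, was at 37.2, 31, 30.3 and 52 RPKM in PBS/DEC and 8.02, 7.2, 4.81 and 5.12 in CpG-scrODN/PBS, a difference of 2.40 ± 0.20 (adjusted p = 0.000632). It counts among 16 of 51 antigen-receptor and ITAM signalling genes that were called, all higher in PBS/DEC, with 14 to 18 called on leaving out each library and a list median of 0.37. Blk, Blnk and Bank1 of the 16 are also in the B-cell marker list, whose summed level differed between the groups. Siglecg (chromosome 7, 43408192 to 43418349), an inhibitory sialic acid receptor of B cells, was at 15.9, 13.2, 15.5 and 14.9 against 2.43, 1.6, 1.11 and 0.837, with little spread among the PBS/DEC libraries (2.71 ± 0.18, adjusted p = 0.000234). Fcrl5, an Fc receptor-like protein of B cells, was at 7.74, 5.44, 6.86 and 3.84 against 0.208, 0.163, 0.145 and 0.10, and here replicate 4 was the lowest PBS/DEC library (2.56 ± 0.18, adjusted p = 0.000234). Fcgr2b, the inhibitory IgG receptor of B and myeloid cells, was at 35.4, 31.2, 43 and 49.8 against 13, 13.6, 10.8 and 20.4 (1.42 ± 0.20, adjusted p = 0.00606). Of 37 lectin, Siglec, Fc and paired receptors 9 were called, all higher in PBS/DEC, with a median of 0.64 (3 without CpG-scrODN/PBS replicate 2 or 3, 5 without CpG-scrODN/PBS replicate 1 and 15 without PBS/DEC replicate 4).

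Costimulatory and checkpoint molecules were called in 6 of 18 (Cd40, Icosl, Lag3, Btla, Cd52 and Cd38), with a median of 0.41. Cd52, a small lipid-anchored glycoprotein of lymphocytes and monocytes, had the highest level of these, at 110.5, 111, 102 and 199.7 RPKM in PBS/DEC and 26.7, 30.0, 19.5 and 20.2 in CpG-scrODN/PBS (2.36 ± 0.23, adjusted p = 0.00124). Cd38, an ectoenzyme that consumes NAD, was at 11.3, 6.64, 9.76 and 14.2 against 1.26, 1.51, 1.44 and 1.85 (2.15 ± 0.20, adjusted p = 0.000879). Icosl, the ligand of the T-cell receptor ICOS, was at 7.06, 8.26, 9.55 and 10.4 against 2.42, 2.3, 1.75 and 1.33 (1.74 ± 0.16, adjusted p = 0.00085), and Btla, an inhibitory receptor, at 9.11, 7.38, 11.7 and 9.83 against 3.71, 2.34, 2.23 and 1.58 (1.62 ± 0.19, adjusted p = 0.00302). Replicate 4 was 1.25 times the mean of the other PBS/DEC libraries for Icosl and 1.05 times for Btla. Tetraspanins, which organise membrane microdomains, were called in 6 of 15 (Cd9, Cd37, Cd53, Cd81, Tspan3 and Tspan32; 3 without CpG-scrODN/PBS replicate 3). Cd37, the leukocyte tetraspanin, was at 54, 53.3, 54.6 and 76.9 against 19, 16.3, 15.1 and 16 (1.77 ± 0.13, adjusted p = 0.00031).

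Adhesion genes were called in 7 of 29 (among them Itgal, Itgb2, Itgb5, Pecam1, Slamf6 and Ly9), with a median of 0.32. For this list and the receptor lists that follow, the share of all genes called was 3.72%. Pecam1, or CD31, of endothelium and leukocytes, was at 6.97, 4.53, 6.04 and 13.3 RPKM in PBS/DEC and 1.0, 0.692, 0.817 and 1.2 in CpG-scrODN/PBS (2.09 ± 0.26, adjusted p = 0.00352). The SLAM family receptors Ly9 and Slamf6, neighbours on chromosome 1, were lower in level. Ly9 was at 4.97, 4.23, 4.04 and 8.41 against 1.05, 0.825, 0.976 and 0.957 (1.67 ± 0.19, adjusted p = 0.00245), and Slamf6 at 2.86, 1.93, 1.92 and 5.71 against 0.269, 0.38, 0.353 and 0.201 (1.57 ± 0.25, adjusted p = 0.0101). Slamf6 was under 1 RPKM in every CpG-scrODN/PBS library, so the filter fixed that its groups did not overlap. In Pecam1, Ly9 and Slamf6 replicate 4 was the highest PBS/DEC library. Il21r, the interleukin-21 receptor, was at 8.43, 6.25, 6.23 and 18.6 against 0.875, 1.08, 0.736 and 0.442 (2.49 ± 0.30, adjusted p = 0.00323), 1 of 4 called among 35 cytokine and growth factor receptors (2 without PBS/DEC replicate 2 or CpG-scrODN/PBS replicate 1, 2, 3 or 4). Ffar2, a receptor for short-chain fatty acids on myeloid cells, was at 1.81, 2.22, 2.97 and 2.07 against 0.918, 0.607, 0.315 and 0.275 (1.10 ± 0.17, adjusted p = 0.00766), 1 of 5 called among 32 chemokine and other G protein-coupled receptors (1 without CpG-scrODN/PBS replicate 2, 3 or 4, 3 without CpG-scrODN/PBS replicate 1, 8 without PBS/DEC replicate 3 and 10 without PBS/DEC replicate 4).

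In some of the largest differences replicate 4 stood far above the other PBS/DEC libraries. Cd83, an activation marker of dendritic and B cells, was at 13, 9.02, 11 and 69.7 RPKM in PBS/DEC and 0.92, 0.67, 0.584 and 0.902 in CpG-scrODN/PBS, a difference of 3.40 ± 0.55 (adjusted p = 0.0101). Cd2, an adhesion molecule of T cells and, in mice, B cells, was at 13.1, 6.84, 9.36 and 38.6 against 0.519, 0.984, 0.292 and 0.907 (3.14 ± 0.44, adjusted p = 0.00591). Both remained called with each library left out. Ly6a, the stem cell and lymphocyte antigen Sca-1, was at 22, 17.4, 14.7 and 95.5 against 3.26, 3.37, 3.6 and 1.89 (2.84 ± 0.52, adjusted p = 0.0193). Its call was lost on leaving out any 1 of the CpG-scrODN/PBS libraries, with differences of 2.68 to 2.91 and adjusted p of 0.0565 to 0.0689. H2-Q8, a nonclassical class I gene whose H2-Q copies may share reads, was at 19.4, 16.6, 17.5 and 47.1 against 4.7, 4.64, 3.66 and 1.37 (2.45 ± 0.38, adjusted p = 0.00865).

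GIMAP genes, which encode GTPases that support lymphocyte survival and lie in a cluster on chromosome 6, were called together. Of 57 small GTPases and regulators 12 were called, all higher in PBS/DEC, and 8 of these were Gimap1, 3, 4, 5, 6, 7, 8 and 9. The list median was 0.099, and 9 to 17 were called on leaving out each library. Gimap1 (chromosome 6, 48739047 to 48743795) was at 7.4, 5.81, 7.47 and 18.1 RPKM in PBS/DEC and 0.852, 0.86, 0.499 and 0.402 in CpG-scrODN/PBS (2.58 ± 0.30, adjusted p = 0.00245). Gimap3 was at 14.7, 9.43, 12.9 and 33.2 against 1.95, 1.98, 0.988 and 1.59 (2.69 ± 0.33, adjusted p = 0.00327), and Gimap4 at 13.9, 8.45, 7.09 and 29.2 against 1.52, 2.08, 1.21 and 1.26 (2.45 ± 0.37, adjusted p = 0.00766). Gimap6 was at 14.3, 12.8, 13.8 and 44.1 against 3.39, 2.9, 2.16 and 2.11 (2.43 ± 0.36, adjusted p = 0.0069). In all 4 of these replicate 4 was the highest PBS/DEC library, and close copies in the family may share reads.

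Actin regulators were called in 5 of 39 (Fmnl3, Pstpip1, Myo1e, Evl and Marcks), against 3.72% of all genes, with a list median of 0.049. The count became 3 without PBS/DEC replicate 2 or CpG-scrODN/PBS replicate 1, 2, 3 or 4 and 8 without PBS/DEC replicate 4. Evl, which promotes filament growth, was at 8.93, 7.27, 7.36 and 18.2 RPKM in PBS/DEC and 1.59, 1.66, 1.45 and 1.71 in CpG-scrODN/PBS (2.04 ± 0.25, adjusted p = 0.00323). Pstpip1, an adaptor that binds the pyrin protein, was at 7.14, 8.29, 9.07 and 11.9 against 2.94, 2.61, 1.31 and 1.21 (1.77 ± 0.22, adjusted p = 0.00353). Myo1e, a membrane-linked myosin, was at 2.49, 1.81, 2.58 and 5.82 against 0.373, 0.319, 0.315 and 0.356 (1.55 ± 0.24, adjusted p = 0.00934). Ablim1, an actin-binding LIM protein, was at 6.75, 4.19, 5.3 and 20.1 against 0.808, 0.634, 0.484 and 0.434 (2.43 ± 0.39, adjusted p = 0.00961), with replicate 4 highest. Wdfy4, needed by dendritic cells for cross-presentation, was at 8.98, 5.64, 8.35 and 11.7 against 2.59, 2.04, 1.39 and 0.965 (1.82 ± 0.24, adjusted p = 0.00385). It was the 1 gene called of 4 conventional dendritic cell markers kept (3 without PBS/DEC replicate 4). The summed RPKM of all 11 such markers listed, kept or not, was 26.0 to 76.1 in PBS/DEC and 16.6 to 21.0 in CpG-scrODN/PBS. The part of conventional dendritic cells in these differences was not tested.

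Endosomal and lysosomal genes were also called. Pld4 (chromosome 12, 112760446 to 112768986), an exonuclease that degrades single-stranded DNA and RNA in endolysosomes, was at 33.1, 28.5, 32.1 and 26 RPKM in PBS/DEC and 7.41, 7.9, 5.73 and 6.97 in CpG-scrODN/PBS, a difference of 1.95 ± 0.11 (adjusted p = 0.00023), and replicate 4 was the lowest PBS/DEC library. Ctsh, a lysosomal aminopeptidase, was at 24.4, 23, 20.9 and 37.9 against 5.86, 4.98, 4.69 and 8.15 (1.98 ± 0.21, adjusted p = 0.00164). Tfeb, the transcription factor that drives lysosome genes, was at 7.12, 8.52, 6.36 and 7.85 against 4.2, 4.62, 4.55 and 4.76, a smaller difference of 0.61 ± 0.098 (adjusted p = 0.0101). With Psap and Slc11a1, Ctsh and Tfeb were the 4 called of 33 lysosome and cathepsin genes (2 without CpG-scrODN/PBS replicate 3), with a median of 0.27.

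Channels and transporters were called in both directions, 4 of 35 higher in PBS/DEC (Kcna3, Hvcn1, Slc28a2 and Atp8b4) and 2 higher in CpG-scrODN/PBS (P2rx4 and Abcg1). Hvcn1, the proton channel that balances charge during the oxidative burst, was at 22.2, 21.3, 27.4 and 57.3 RPKM in PBS/DEC and 5.94, 4.72, 4.58 and 3.69 in CpG-scrODN/PBS (2.42 ± 0.29, adjusted p = 0.00307). Slc28a2, a nucleoside carrier, was at 5.97, 6.05, 6.5 and 7.56 against 1.73, 1.29, 0.971 and 1.27 (1.70 ± 0.12, adjusted p = 0.000251). Atp8b4, of the phospholipid flippase family, was at 3.12, 4.21, 4.96 and 6.11 against 1.57, 1.18, 0.744 and 1.32 (1.33 ± 0.19, adjusted p = 0.00535). Plk2, a polo-like kinase induced by p53 and by stress, was at 2.78, 3.34, 2.23 and 2.81 against 0.469, 0.261, 0.337 and 0.422, among the least variable of these differences (1.46 ± 0.12, adjusted p = 0.000535), and was the 1 gene called of 25 in the p53 and cell cycle inhibitor list (2 without PBS/DEC replicate 4, 3 without PBS/DEC replicate 2 and 4 without PBS/DEC replicate 3), a share near the 3.72% of all genes. Dtx1, a ubiquitin ligase of the Notch pathway, was at 3.22, 3.31, 3.41 and 8.17 against 0.581, 0.333, 0.292 and 0.101 (1.99 ± 0.26, adjusted p = 0.00368). With Notch1 and Mfng it made 3 called of 23 Notch, Wnt and TGF-beta genes (1 without CpG-scrODN/PBS replicate 3 and 5 without PBS/DEC replicate 4).

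Stat3 itself did not pass the test. It was at 37.5, 37.5, 46.7 and 51.1 RPKM in PBS/DEC and 45.2, 45, 43 and 46.8 in CpG-scrODN/PBS, with overlapping groups and a difference of 0.068 ± 0.11 (CpG-scrODN/PBS minus PBS/DEC, 95% interval -0.18 to 0.32, adjusted p = 0.776). Of 20 STAT and JAK pathway genes 1 was called (3 without PBS/DEC replicate 3), Ptpn1, a phosphatase that acts on JAK kinases. That count is near the 3.72% of all genes called. Ptpn1 was at 21, 21.7, 22.1 and 26.4 against 14.4, 14.9, 13.7 and 13.8, higher in PBS/DEC by 0.64 ± 0.087 (adjusted p = 0.00501). Of 17 STAT3 target genes, Cebpd and Bcl6 were called higher in PBS/DEC and Vegfa higher in CpG-scrODN/PBS. The 3 calls in that list became 1 without PBS/DEC replicate 1 or 2 or CpG-scrODN/PBS replicate 1, 2 or 3 and 7 without PBS/DEC replicate 3, and the medians of both lists were 0.054 and 0.054.

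**Figure D4:**
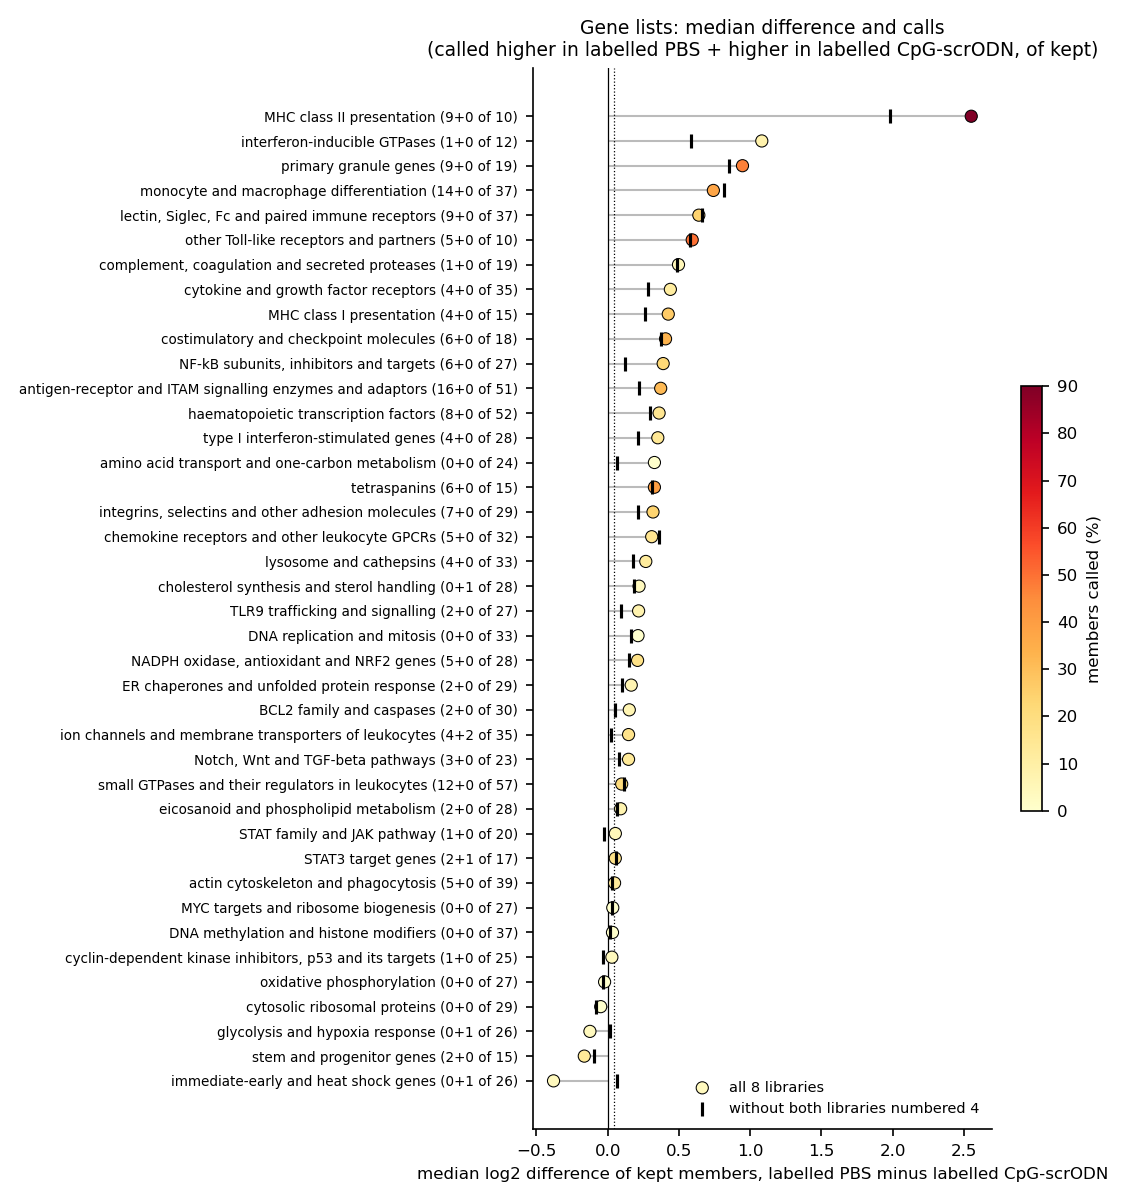
Median log2 difference of the kept members of each gene list with at least 5 kept members, other than cell type marker lists (x axis, labelled PBS minus labelled CpG-scrODN), coloured by the percentage of kept members called, with ticks for the value without both libraries numbered 4 and a dotted line at the median of all genes. MHC class II, interferon-inducible GTPases, primary granule and monocyte lists lie furthest to the right among the lists shown, and the median of immediate-early and heat shock genes crosses zero when the libraries numbered 4 are left out.

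Some lists of growth, energy and chromatin genes held no called member. Of all 10726 genes 3.72% were called, so lists this short would hold few calls or none at that share. By limma, 0 were called of 29 cytosolic ribosomal proteins (2 at an unadjusted p under 0.05), of 27 oxidative phosphorylation genes (1), of 27 MYC targets (0), of 33 DNA replication and mitosis genes (10), of 37 DNA methylation and histone modifiers (2) and of 24 amino acid genes (1). Over all 10726 genes, 1836 had an unadjusted p under 0.05. Of the 33 replication genes 29 were higher in PBS/DEC and 4 higher in CpG-scrODN/PBS, with a median difference of 0.21. Without PBS/DEC replicate 3, 7 replication genes and 1 each of the oxidative phosphorylation, MYC and amino acid genes were called, and 1 replication gene without PBS/DEC replicate 1. Rplp1, a ribosomal stalk protein, was at 2179, 2507, 2456 and 2502 RPKM in PBS/DEC and 2389, 2409, 2415 and 2263 in CpG-scrODN/PBS (0.024 ± 0.069, 95% interval -0.13 to 0.18). Atp5b, of the ATP synthase, was at 801, 812, 698 and 703 against 782, 834, 847 and 704, Npm1, a nucleolar chaperone, at 546, 519, 433 and 372 against 443, 512, 497 and 429, and Pcna, the replication clamp, at 240.5, 231, 203 and 215 against 183, 208, 211 and 172. Their adjusted p values were 0.706, 0.944 and 0.305. Uhrf1, which maintains DNA methylation, was at 88.4, 85.5, 71.4 and 61.5 against 66.2, 83, 84.7 and 58.2, and Bmi1, of a Polycomb complex, at 67, 72.8, 93.4 and 57.7 against 78.7, 75.8, 78.2 and 101. None of these 6 genes separated the groups.

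Red cell and stress transcripts varied widely within groups. The haemoglobin gene Hbb-b1 was at 4506, 1160.5, 105 and 210.0 RPKM in PBS/DEC and 743, 659.5, 375 and 247 in CpG-scrODN/PBS, and Hba-a1 at 3047, 808, 92 and 279 against 441, 428, 264 and 189, with adjusted p of 0.89 and 0.725. Globin copies may share reads. Hspa1a, an inducible heat shock protein, was at 434, 520.5, 42.1 and 1.87 against 205, 31.6, 71.8 and 2.38 (adjusted p = 0.794). Replicate 4 was lowest in both groups. The immediate-early and heat shock list had a median of 0.38 (CpG-scrODN/PBS minus PBS/DEC), which turned to 0.07 in the other direction without both libraries numbered 4.

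Of the 16 genes called higher in CpG-scrODN/PBS, 3 differed by at least 1 on the log2 scale. The count depended on single libraries, becoming 292 without PBS/DEC replicate 3 and 72 without PBS/DEC replicate 4 but 2 to 8 without any 1 of the other libraries, and it was 714 with library quality weights. Abcg1 (chromosome 17, 31057694 to 31117984), a transporter that exports cholesterol to high-density lipoprotein, was at 14.2, 22, 16.3 and 15.6 RPKM in PBS/DEC and 31.8, 29.7, 31 and 29.2 in CpG-scrODN/PBS. The CpG-scrODN/PBS libraries lay close together and above all of PBS/DEC, with a difference of 0.82 ± 0.12 (CpG-scrODN/PBS minus PBS/DEC, adjusted p = 0.00766), and the call held on leaving out each library. Egr4, an immediate-early zinc finger gene, was at 0.44, 0.648, 0.815 and 0 against 1.3, 3.98, 7.64 and 5.0 (1.78 ± 0.38, adjusted p = 0.037), and was listed at 0 in PBS/DEC replicate 4. Vegfa, the vascular growth factor, was at 12.8, 13, 13.7 and 10.6 against 20.2, 19.5, 19 and 15.9 (0.54 ± 0.11, adjusted p = 0.0267). P2rx4, an ATP-gated ion channel, was at 21, 21.8, 27.6 and 20.5 against 36.2, 34.1, 36.4 and 29.5 (0.57 ± 0.11, adjusted p = 0.0283).

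Another 8 genes named in this direction had differences of 0.37 to 0.80. Stc2, a secreted stanniocalcin, was at 9.83, 10.1, 17.2 and 14 against 22.9, 23.7, 24.3 and 19 RPKM, and L1cam, a neural adhesion molecule, at 1.3, 1.84, 2.84 and 1.9 against 4.46, 4.03, 3.22 and 4.26. Esyt2, a tether between the endoplasmic reticulum and the plasma membrane, was at 21.7, 22.2, 29.5 and 19.4 against 34.3, 35.3, 34.9 and 48.7. Acad11, an acyl-CoA dehydrogenase, was at 6.78, 8.5, 7.48 and 5.74 against 10.7, 11, 13 and 9.64, and the mitotic checkpoint ligase Chfr at 36.3, 34.7, 35.6 and 32.2 against 44.7, 42.9, 45.5 and 47.6. Tbc1d9b, Rarres1 and Hist1h2ah, a histone gene whose copies may share reads, made up the rest, with differences of 0.46, 0.39 and 0.73. Of the 12 genes, 11 lost their call on leaving out at least 1 library: 11 without CpG-scrODN/PBS replicate 2 or 3, 10 without replicate 1, 9 without replicate 4, 10 without PBS/DEC replicate 1 or 2, and Egr4 and Esyt2 without PBS/DEC replicate 4. Those 11 kept their direction, with differences of 0.34 to 2.14 and adjusted p up to 0.152.

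Replicate 4 of PBS/DEC stood above replicates 1 to 3 for some called genes and not for others. Its RPKM divided by the mean of replicates 1 to 3 had a median of 1.53 over the 383 genes higher in PBS/DEC and of 1.02 over all genes. The ratio was at least 2 in 119 of the 383 (31.1%) against 5.55% of all genes, between 0.8 and 1.25 in 114 and under 1 in 71. Called members of the MHC class II list had a median ratio of 2.93, B-cell markers 2.31, transcription factors 2.31 and small GTPases 2.17. Called primary granule genes had a median of 1.04, lysosome genes 1.11, monocyte genes 1.21 and oxidase and antioxidant genes 1.27. By these medians the called granule and lysosome genes were about as high in replicates 1 to 3 of PBS/DEC as in replicate 4.

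**Figure D5:**
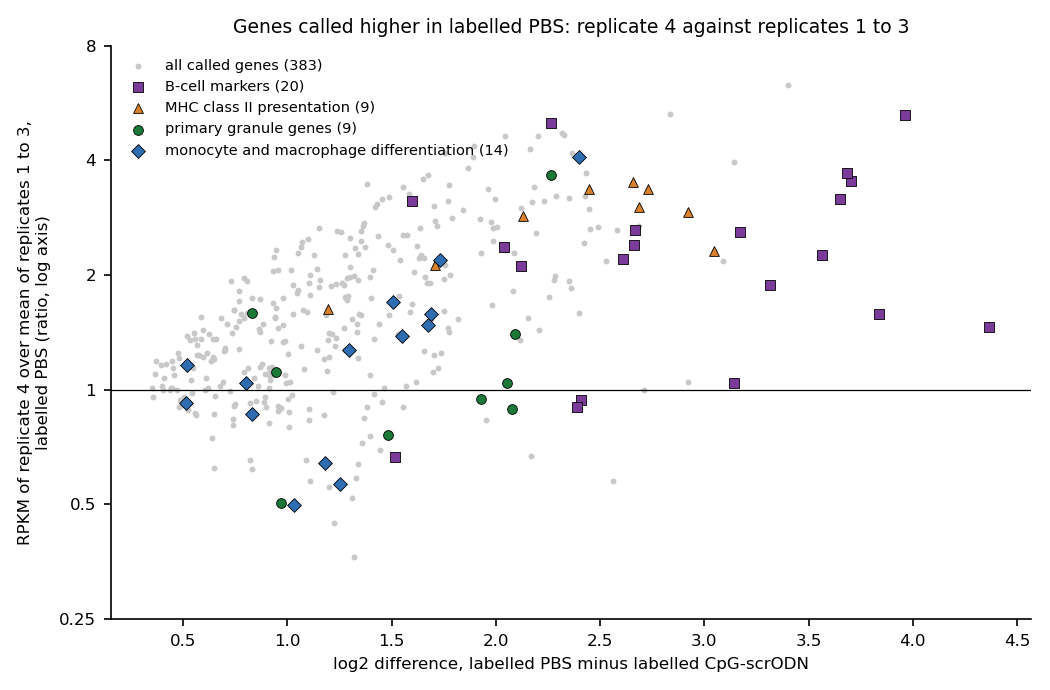
RPKM of replicate 4 divided by the mean of replicates 1 to 3 in labelled PBS (y axis, log scale) against the log2 difference between groups (x axis), for the 383 genes called higher in labelled PBS, with 4 lists marked. B-cell and MHC class II genes lie mostly above a ratio of 2, while primary granule and monocyte genes scatter on both sides of 1.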

How the data were processed

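RPKM values of 24310 features per library were used as the authors deposited them, per the file headers. The submitters' processing notes name mm10, TopHat 1.3.1 and Partek 6.12.0713 without their roles. Dates stand in place of the symbols of 27 features, which are not named. Groups came from the treatment labels. Depth was estimated from the RPKM step of 1 read, and 60.6% to 63.4% of low single-transcript values came out whole within 0.05 read, too few for a count test.

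Genes at 1 RPKM or more in at least 4 of 8 libraries (10726) were fitted with limma 3.58.1 in R 4.3.3 on log2(RPKM + 1), with moderated variances and an intensity trend. The model was tested on simulated data. Within groups, estimated reads differed by a chi-square of 15.7 to 405 per degree of freedom, so each library was counted separately. Alternatives were other pseudocounts, filters, scalings, weights and fits, and each library left out.

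The comparison and its 53 gene lists were chosen with earlier results of these data known. Genes named were the 16 with the largest differences in each direction (or all) outside B-cell, plasma cell and MHC lists, with a mean RPKM of at least 1, no overlap and a regular symbol; up to 4 called members per list or, with none, the 2 with the highest level; Stat3, Tlr9 and Irf8; and Fos, Hspa1a and Xist. Of 154 such genes 125 were called and 73 held with each library left out; 56 of these, outside B-cell, plasma cell, T-cell and MHC lists, are described except where not reported here, with the largest differences and quality genes. Members listed only as called, Spi1, and the genes under other observations fall outside that rule. Coordinates and promoters are from RefSeq (GRCm38.p6).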

Additional observations from a re-analysis of the deposited data

Results flagged for a closer look

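Among the 92 genes described, each group of 4 libraries was screened for a single library whose gap to its nearest neighbour exceeds Dixon's 95% critical value. The screen marked 13 of 184 groups (7.07%), and chance marks about 1 in 20. Replicate 4 of PBS/DEC accounted for 7 of the 13. It was far the highest for H2-Q8 (47.1 RPKM), Gimap6 (44.1), Cd180 (6.47), Cd52 (199.7), Cd37 (76.9) and Dtx1 (8.17), and far the lowest for Fos (12.9).

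The other 6 were spread over libraries. CpG-scrODN/PBS replicate 4 was far highest for Esyt2 (48.7 RPKM) and Bmi1 (100.7) and far lowest for Ly6a (1.89) and Rplp1 (2263). CpG-scrODN/PBS replicate 2 was far highest for Ms4a6b (3.07). PBS/DEC replicate 1 was far lowest for Rplp1 (2179).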

How the results depend on the processing

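Calls numbered 399 (16 higher in CpG-scrODN/PBS and 383 in PBS/DEC), and each of the 70 called genes described kept its direction under all alternatives run. Of the 22 genes described that were not called, 7 changed sign under at least 1 alternative (Fos, Hspa1a, Hba-a1, Hbb-b1, Npm1, Uhrf1 and Rplp1). With an RPKM floor of 5 the counts were 152, 5 and 147, where fewer genes were tested, and with limma's library quality weights, which gave PBS/DEC replicate 4 a weight of 0.108, they were 1740, 714 and 1026. Quantile normalization gave 62 higher in CpG-scrODN/PBS, and leaving out both libraries numbered 4, chosen after the data were seen, gave 77; the cause was not tested. The share of calls higher in CpG-scrODN/PBS was 4.01%, against 18.6% after quantile normalization and 41.0% with the weights. Leaving out 1 library at a time, the counts ran from 204 to 817 in all, from 2 to 292 higher in CpG-scrODN/PBS and from 202 to 525 higher in PBS/DEC. Same-numbered libraries deviated together with correlations of -0.07, 0.22, -0.21 and 0.19, and differently numbered ones with -0.34 to 0.37. These values are too few to settle pairing, and whether replicate numbers mark a shared batch was not tested. With the replicate number as a block 276 genes were called, 13 higher in CpG-scrODN/PBS and 263 in PBS/DEC. Of the 70 called genes described, 13 lost their call under the block, 11 without a filter, 9 in a fit over all 12 libraries, 4 at the floor of 5, and at most 2 with the pseudocount of 0.1 or another scaling. Members called moved by over 1.5 times in 45 of 53 lists with the weights, 23 at the floor of 5, 21 without both libraries numbered 4, 17 without a filter, 13 under the block or quantile normalization and 11 to 23 on leaving out 1 library. An RPKM of 1 stood for 31.51 to 35.93 reads per kilobase, which limits the genes under 1 RPKM.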

Other observations

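Replicate 3 of PBS/DEC differed from the other PBS/DEC libraries in the single genes below, all chosen after their values were seen. By mean log2 level, mast cell and basophil markers as a list did not single it out. That level was 5.30, 5.60, 5.49 and 5.35 in PBS/DEC replicates 1 to 4. Their summed RPKM was highest in replicate 3 of PBS/DEC, at 1215, 1816, 2477 and 819 against 2567, 2325, 2209 and 4010. Of the 8 kept, 3 were higher in PBS/DEC, among them the called Mcpt8, and 5 higher in CpG-scrODN/PBS. The count of calls became 3 without PBS/DEC replicate 3. Megakaryocyte and platelet markers had a mean log2 level of 3.58, 3.99, 4.45 and 3.40 against 4.62, 4.49, 4.49 and 4.58. Of the 5 kept, 0 were called, 2 without PBS/DEC replicate 3 and 1 without PBS/DEC replicate 4. Kit, the receptor used for the enrichment, was at 10.5, 12.8, 37.8 and 22.9 RPKM in PBS/DEC replicates 1 to 4 and at 31.3, 28.7, 28.3 and 40.5 in CpG-scrODN/PBS. Cd34, a progenitor surface sialomucin, was at 6.53, 14.5, 33.8 and 5.15 against 38, 25.4, 27.6 and 24.5. Cpa3, the carboxypeptidase of mast cells and their progenitors, was at 251, 502, 1162 and 84.7 against 1288, 1059, 979.6 and 1997, and Tbxas1, thromboxane synthase, at 8.99, 11.7, 42.6 and 4.86 against 61, 48.4, 48.9 and 41. Siglecf, a sialic acid receptor of eosinophils, was at 4.65, 7.13, 37.8 and 1.28 against 47.3, 30.2, 33.8 and 32.8, and P2ry14, a receptor for UDP-glucose, at 4.3, 6.8, 15.7 and 6.95 against 15.5, 13.9, 12.7 and 24.4.

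In these 6 genes replicate 3 was the highest PBS/DEC library and within the range of CpG-scrODN/PBS, while replicates 1, 2 and 4 lay below it. None was called by limma with all 8 libraries (adjusted p = 0.315 for Kit, 0.246 for Cd34, 0.198 for Cpa3, 0.0959 for Tbxas1, 0.163 for Siglecf and 0.178 for P2ry14).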
